A study of Gallus gallus with 9 samples.

Results

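The mitochondrial carrier family (SLC25) was followed in the liver of adult laying hens. Members were all loci whose deposited gene name held a symbol made of SLC25A and a number, also where the locus carried further names. This gave 34 of the 22082 loci, with 32 distinct symbols on 18 chromosomes, the Z chromosome among them. Of the 36 SLC25A symbols in the RefSeq gene table (assembly GRCg7b), 32 had a member locus, and SLC25A20, SLC25A34, SLC25A5 and SLC25A51 were not analysed here under those names.

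Liver RNA was sequenced from 9 Isa Brown layer-type hens of 55 weeks of age, 3 in each of 3 groups. In the albumen-deprived group, 3 ml of albumen had been drawn from the egg after 1 day of incubation, saline had been put in its place and the drilled hole had been sealed with paraffin. Eggs of the sham-manipulated group were drilled and sealed with nothing taken out or put in, and eggs of the non-manipulated group were left intact. All hens were reared in floor pens of 1 room on the same diets, each library came from a different hen, and all libraries were sequenced in 1 lane. The question put to the data was whether protein undernutrition before hatch left a lasting difference in the liver transcripts of the adult hen, here those of the mitochondrial carriers.

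Carriers of this family are small proteins, nearly all of the inner mitochondrial membrane, that exchange metabolites between the cytosol and the matrix. Adenine nucleotide carriers swap ADP for ATP, the phosphate carrier supplies phosphate for ATP synthesis, and the citrate carrier takes citrate out to the cytosol, where it is cut to acetyl-CoA for fatty acid and cholesterol synthesis. In birds the liver rather than adipose tissue is the main site of fatty acid synthesis, and in the laying hen it also makes the lipids and proteins of the yolk.

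Total counts per library ran from 13720872 to 21747636, so that 1 CPM (a count for each 1000000 counts of the library) stood for 13.5 to 20.1 counts after TMM scaling (trimmed mean of M-values), which all CPM given here carry. The test was run on the 12324 loci above 1 CPM in 3 or more libraries, 32 of the 34 members among them. The tissue label was checked on 8 hepatocyte markers, all of them tested, whose summed level was 146810 to 216690 CPM in the 9 hens. ALB was the locus with the second highest length-scaled level. Muscle markers summed to 6.26 to 9.91 CPM, with MB at 0. In bulk tissue fewer cells of a type and less RNA per cell cannot be told apart.

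Several member loci did not stand for 1 carrier gene. On chromosome 17 of Galgal4, a merged locus named OGCHI and SLC25A25 (plus strand, 4788788 to 4798625) overlapped the locus named SLC25A25 (minus strand, 4793430 to 4819795) over 5196 bases. The RefSeq table gives OGCHI as another name of ORM1, a secreted plasma glycoprotein made by hepatocytes. Libraries were not stranded, so reads of these overlapping genes cannot be told apart there, and the study left reads fitting more than 1 gene uncounted. Levels per length of both loci may thus be too low, also that of the locus named SLC25A25. The level of the merged locus is not a level of the carrier. A locus on chromosome 1 (49763481 to 49804765) joined SLC25A17, the peroxisomal member of the family, with ST13, a chaperone partner. The symbol SLC25A6 was held by 2 loci, the first on chromosome 1 (128508693 to 128512825, 3 exons) and another on chromosome 4 (16521844 to 16523820, 4 exons). The latter is called SLC25A6 (chr4) below. It lay 1012 bases from SLC25A43. In the RefSeq table the gene next to SLC25A43 is SLC25A5, also an ADP/ATP carrier, whereas SLC25A6 lies beside ASMTL. By position this locus, and its values below, may thus be those of SLC25A5, but the name in the files was kept. SLC25A29 and SLC25A47, on opposite strands of chromosome 5, were neighbours with 6930 bases between them.

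Ranked by mean length-scaled level (TMM-scaled CPM per kilobase of the deposited locus length), 7 members stood in the top 10% of the 12324 loci. These were SLC25A6, SLC25A1, the merged locus OGCHI/SLC25A25, SLC25A6 (chr4), SLC25A3, SLC25A4 and SLC25A13. The median level was 7.16 CPM per kilobase over the members and 4.01 over all loci tested. Above the middle rank there were 20 members and below it 12, and the lowest member tested was SLC25A12 at rank 10938.

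**Figure D1:**
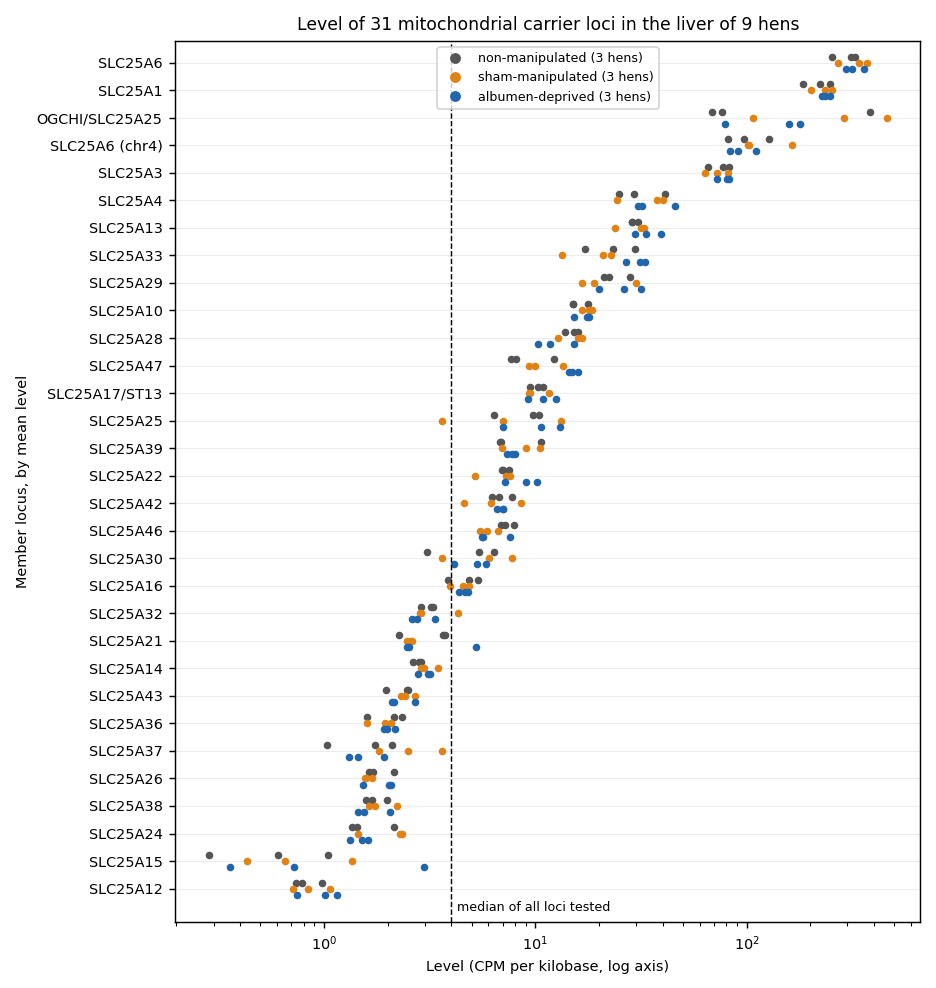
Length-scaled level of 31 of the 32 member loci tested, from the highest to the lowest mean. The x axis gives CPM per kilobase on a log scale, each point is a hen, colours mark the 3 groups and the dashed line is the median of all loci tested (4.01). Mean levels fall from 316.3 for SLC25A6 to 0.892 for SLC25A12, and points of the groups lie among each other for nearly every locus, with SLC25A47 as the locus whose 3 albumen-deprived hens lie above the other 6.

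SLC25A6, which exchanges ADP and ATP, had the highest level of the family, 316.3 ± 38.3 CPM per kilobase (SD, n = 9) and rank 141. With the deposited FPKM, which were normalized otherwise and cover more loci, its rank was 221. In the order of hens 1, 2 and 3 of a group, kept for all values below, its CPM was 914, 958 and 743 among non-manipulated, 796, 1085 and 995 among sham-manipulated and 1046, 860 and 927 among albumen-deprived hens. The highest hen was in the sham-manipulated and the lowest in the non-manipulated group, and the groups overlapped. SLC25A6 (chr4) had 107 ± 25.95 CPM per kilobase and rank 393. Its CPM was 98.4, 155 and 117 among non-manipulated, 123, 198 and 122 among sham-manipulated and 134, 110 and 100.1 among albumen-deprived hens. Sham-manipulated hen 2 was the highest here as well.

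SLC25A4, the ADP/ATP carrier best known from heart and skeletal muscle in mammals, was at 34.0 ± 7.54 CPM per kilobase and rank 1120. Its CPM was 48.6, 67.9 and 41.01 among non-manipulated, 40.1, 62.2 and 66.2 among sham-manipulated and 75.8, 50.7 and 53.0 among albumen-deprived hens, with the groups overlapping. The locus on chromosome 1 held 64.7% to 73.8% of the length-scaled level of the 3 ADP/ATP carrier loci in every hen, SLC25A6 (chr4) 19.2% to 28.7% and SLC25A4 6.08% to 8.91%. The order of the 3 loci was thus the same in all 9 hens.

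The phosphate carrier SLC25A3 had 75.4 ± 7.40 CPM per kilobase and rank 527. Its CPM was 325, 349 and 275 among non-manipulated, 266, 343 and 305 among sham-manipulated and 346, 305 and 341 among albumen-deprived hens. The highest hen had 1.31 times the level of the lowest, a narrow range that held hens of all groups. SLC25A33, which in humans carries pyrimidine nucleotides, was at 24.3 ± 6.60 CPM per kilobase and rank 1503.

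Other nucleotide and cofactor carriers were lower. SLC25A25 is known in mammals as a calcium-regulated carrier of ATP-Mg and phosphate. Its locus, overlapped as described above, had a mean of 9.03 CPM per kilobase, against 1.72 for its relative SLC25A24. SLC25A42, a coenzyme A carrier in humans, had 6.76, SLC25A32, which carries folate in humans, 3.12, and the pyrimidine nucleotide carrier SLC25A36 1.97. Of these loci, SLC25A25 was the one whose hens differed by more than 3 times.

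The citrate carrier SLC25A1 followed SLC25A6 at 228 ± 22.7 CPM per kilobase and rank 199. Its CPM was 513, 691 and 623 among non-manipulated, 653, 706 and 563 among sham-manipulated and 692, 652 and 637 among albumen-deprived hens. Non-manipulated hen 1 was the lowest and sham-manipulated hen 2 the highest, 1.38 times apart, with all groups overlapping. SLC25A10, which exchanges malate and succinate for phosphate, had 16.9 ± 1.40 CPM per kilobase and rank 2070. Its CPM was 60.2, 59.9 and 70.5 among non-manipulated, 74.1, 66.2 and 71.5 among sham-manipulated and 60.6, 69.6 and 71.6 among albumen-deprived hens. It had the narrowest range of all members, 1.24 times from the lowest to the highest hen. SLC25A21, a carrier of oxodicarboxylates in humans, was at 3.06 CPM per kilobase.

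Among the amino acid carriers, SLC25A13 (citrin) led per length with 30.9 ± 4.25 CPM per kilobase and rank 1205. It is the aspartate/glutamate carrier that is the main form in the liver of mammals. Its CPM was 132, 141 and 132 among non-manipulated, 152, 110 and 146 among sham-manipulated and 182, 137 and 154 among albumen-deprived hens. Albumen-deprived hen 1 was the highest and sham-manipulated hen 2 the lowest. The sister gene SLC25A12 had 0.892 CPM per kilobase from 23 to 43 counts, and SLC25A13 exceeded it by 25.6 to 44.9 times per length in each hen. SLC25A29, a carrier of basic amino acids in humans, had 23.9 ± 5.28 CPM per kilobase and rank 1523, which did not differ from that of SLC25A33 beyond the spread of either. Its CPM was 202, 152 and 159 among non-manipulated, 119, 135 and 214 among sham-manipulated and 188, 226 and 144 among albumen-deprived hens. The 2 lowest hens were sham-manipulated, and the highest hen of each group was at 202 or more. Without scaling by length, the mean of SLC25A29 (171 CPM) was above that of SLC25A13 (143 CPM).

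The glutamate carrier SLC25A22 had 7.56 CPM per kilobase, and the S-adenosylmethionine carrier SLC25A26 and the glycine carrier SLC25A38 1.77 and 1.76. SLC25A15, the ornithine carrier that serves the urea cycle of mammals, was the member tested with the second lowest level, 0.935 CPM per kilobase. SLC25A48 did not pass the filter, with 1 to 8 counts per library.

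Of the iron carriers (mitoferrins), SLC25A28 had 14.2 CPM per kilobase and SLC25A37, the form needed by developing red blood cells in mouse and zebrafish, 1.94. SLC25A28 exceeded SLC25A37 by 4.41 to 14.8 times per length in each hen. SLC25A39, needed for glutathione import in mammalian cells, had 8.24 CPM per kilobase. Its relative SLC25A40 did not pass the filter. It had 1 count in non-manipulated hen 2 and 0 in the other hens, and 3 counts, the limit that a count of 0 allows, stood for 0.149 to 0.221 CPM in these libraries. These limits and the counts cover counting error only.

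Of the carriers outside these groups, SLC25A47, known in mammals as a carrier found mainly in liver, had 11.8 ± 3.09 CPM per kilobase and rank 2813. SLC25A46, an outer membrane member with a part in mitochondrial shape, had 6.55 and SLC25A43 2.36 CPM per kilobase. The uncoupling-protein relatives SLC25A30 and SLC25A14 had 5.29 and 2.97.

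The summed level of the 34 loci was 3282 to 6605 CPM in the 9 hens. The merged locus OGCHI/SLC25A25 took 14.7% to 50.5% of it. Without that locus, an alternative added after the data were seen, the sum was 2703 to 3397 CPM, with 2909 ± 190 among non-manipulated, 3026 ± 292 among sham-manipulated and 3149 ± 214 among albumen-deprived hens (SD, n = 3 each). The groups overlapped on this sum. SLC25A6, SLC25A1, SLC25A3 and SLC25A29 together made up 65.9% to 69.4% of it in every hen, and SLC25A6 on chromosome 1 alone 27.2% to 33.2%.

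**Figure D2:**
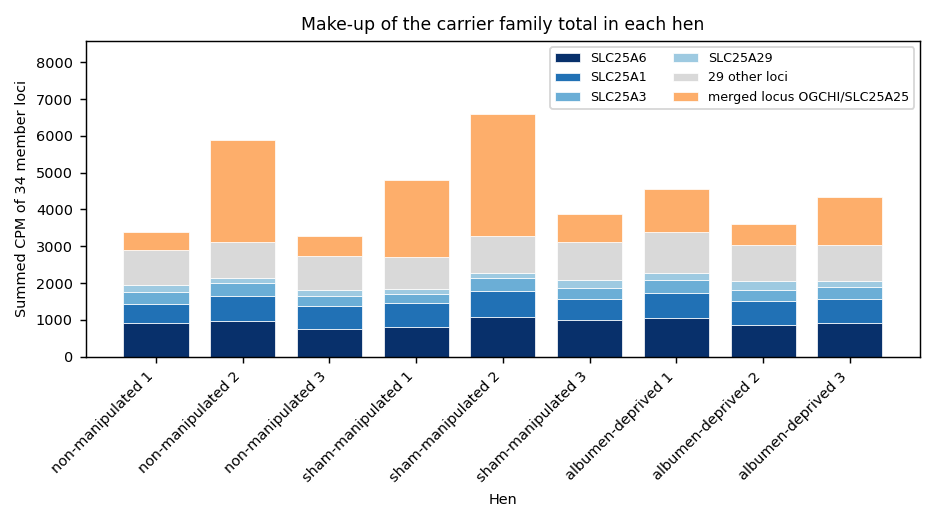
Summed CPM of the 34 member loci in each hen (y axis, from 0), stacked by locus. The part of the merged locus OGCHI/SLC25A25 runs from 498 to 3335 CPM and sets the height of the bars, while the part below it stays between 2703 and 3397 CPM.

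Between albumen-deprived and non-manipulated hens, SLC25A47 was the 1 member (3.12% of 32) with an unadjusted P-value under 0.05 in the edgeR quasi-likelihood test, and it was higher in the albumen-deprived hens. Over all loci tested the share was 3.23%, 1.66% for higher and 1.57% for lower levels. No member and no locus had a Benjamini-Hochberg adjusted P under 0.05, and DESeq2's Wald test also gave 0 members at that level and SLC25A47 alone at the unadjusted one. At the study's cut-off, which asks for a P-value under 0.001 with a log2-fold change over 1 in size, there was no member and 0.0487% of all loci in the edgeR test used here. The study had set this cut-off on P-values of another edgeR model, after GC and quantile normalization and over a larger set of loci. It reported differentially expressed genes in each comparison, so shares at this cut-off here are not the study's own yield. The median log2-fold change was 0.06 over the 32 members, 19 above and 13 below 0, and 0.01 over all loci. With 1 library left out it ran from -0.02 (without albumen-deprived hen 1) to 0.10 (without non-manipulated hen 2) over the members, so that its sign rested on 1 hen.

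The CPM of SLC25A47 was 93.4, 84.7 and 87.5 in albumen-deprived hens, 72.0, 47.4 and 45.1 among non-manipulated and 58.8, 55.0 and 79.7 in sham-manipulated hens. Groups did not overlap for this 1 member (3.12%), against 8.39% of all loci. All albumen-deprived hens lay above the other 6, which held for this 1 member and for 1.27% of all loci, whereas no member and 1.07% of loci lay below them. The log2-fold change against non-manipulated hens was 0.69 (SE 0.20, 95% interval 0.23 to 1.15, edgeR P of 0.00777, adjusted P of 0.99995). It was 0.57 to 0.94, with P between 0.000685 and 0.0333, when any 1 of the 9 libraries was left out. Set against the sham-manipulated group it was 0.46 (SE 0.20, edgeR P of 0.0507, adjusted P of 0.695). With 1 library left out, the log2-fold change against sham-manipulated hens ran from 0.35 (P of 0.152, without sham-manipulated hen 2) to 0.63 (P of 0.0159, without sham-manipulated hen 3). P was under 0.05 in 3 of these 9 fits, the others being those without non-manipulated hen 1 (0.0175) and hen 3 (0.0472). Over the other settings it ran from 0.0431 in DESeq2's Wald test to 0.0980 after GC and between-library quantile normalization, and was 0.0451 with no filter on low counts. The 2 comparisons share the albumen-deprived hens. The neighbouring SLC25A29 had a log2-fold change of 0.12 against non-manipulated hens (95% interval -0.44 to 0.68).

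Members not called had intervals of differing width in this comparison. For the 4 most abundant loci other than the merged one, the log2-fold change was 0.12 for SLC25A6 (95% interval -0.26 to 0.49), 0.12 for SLC25A1 (-0.22 to 0.46), -0.10 for SLC25A6 (chr4) (-0.63 to 0.43) and 0.06 for SLC25A3 (-0.26 to 0.39). Changes by a factor of 2 in either direction lay outside the interval of 28 of the 32 members, these 4 among them. The intervals of SLC25A47, SLC25A25, OGCHI/SLC25A25 and SLC25A15 reached such a change, the last with -0.69 to 2.82. Leaving out 1 library added a member to SLC25A47 in 4 cases. These were SLC25A33 without non-manipulated hen 3 (log2-fold change 0.59, edgeR P of 0.0422), SLC25A46 without albumen-deprived hen 1 (-0.38, P of 0.0211), SLC25A22 without albumen-deprived hen 2 (0.42, P of 0.0423) and SLC25A28 without albumen-deprived hen 3 (-0.46, P of 0.0181).

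**Figure D3:**
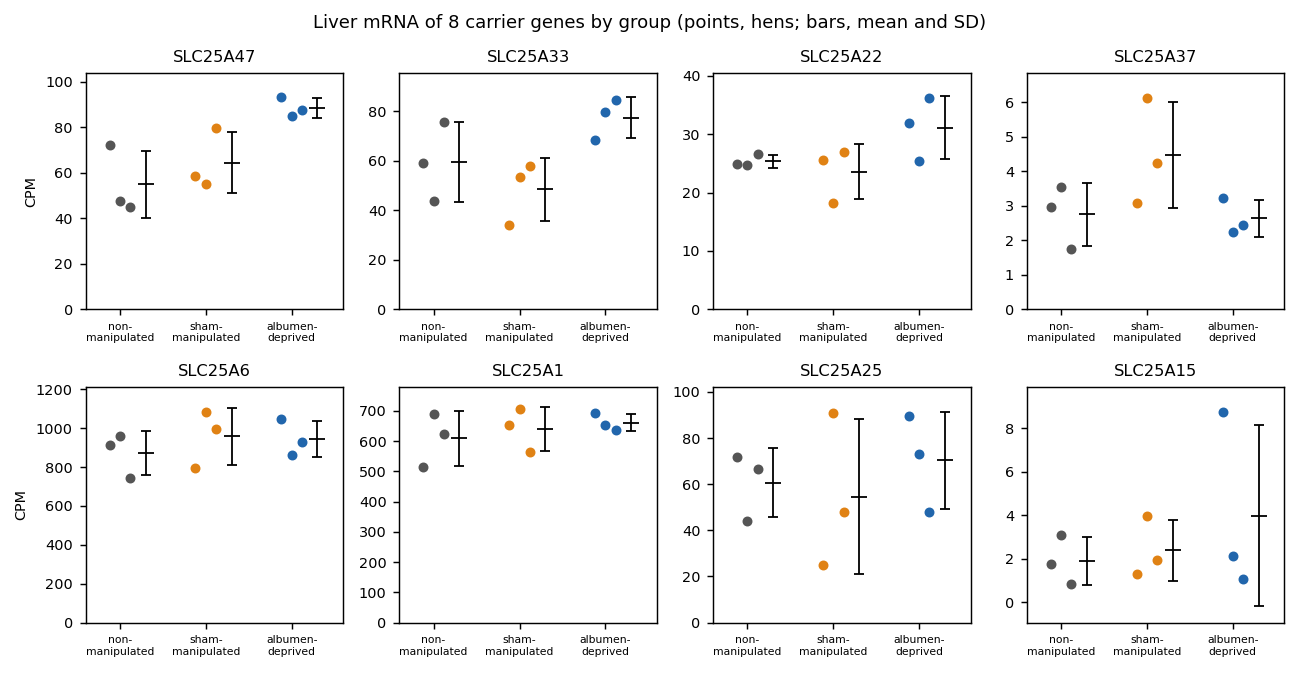
CPM of 8 carrier genes by group (y axis, CPM on a scale of its own in each panel, points for hens, bars for the group mean and SD, n = 3). The 3 albumen-deprived hens lie at 84.7 to 93.4 CPM for SLC25A47, above the 45.1 to 79.7 of the others, while the groups overlap for SLC25A6 and SLC25A1, and SLC25A15 has 1 albumen-deprived hen at 8.73 CPM.

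Between albumen-deprived and sham-manipulated hens, 3 members (9.38% of 32) had an unadjusted P-value under 0.05, SLC25A33 and SLC25A22 higher and SLC25A37 lower in the albumen-deprived hens. The share over all loci was 7.13%, 4.11% for higher and 3.02% for lower levels. After adjustment no member and no locus was under 0.05 in edgeR. DESeq2's Wald test gave 0 members at the adjusted level and 4 at the unadjusted one, the same 3 and SLC25A47. No member and 0.105% of loci passed the study's cut-off when it was set on the edgeR P-values used here. The median log2-fold change was 0.06 over the members, 19 above and 13 below 0, and -0.01 over all loci. It was -0.02 without albumen-deprived hen 1, 0.01 without sham-manipulated hen 1 and 0.05 to 0.08 without any 1 of the other hens. Groups did not overlap for SLC25A33 and SLC25A47, 2 of 32 members (6.25%), against 12.8% of all loci.

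The pyrimidine nucleotide carrier SLC25A33 had 68.3, 79.7 and 84.5 CPM in albumen-deprived, 34.1, 53.5 and 58.0 among sham-manipulated and 59.2, 43.8 and 75.9 among non-manipulated hens. Each albumen-deprived hen was above each sham-manipulated hen, and 1 non-manipulated hen lay among them. Set against the sham-manipulated group, its log2-fold change was 0.68 (SE 0.24, 95% interval 0.14 to 1.22, edgeR P of 0.0196, adjusted P of 0.644). It became 0.48 (P of 0.0638) without sham-manipulated hen 1 and 0.61 (P of 0.0579) without albumen-deprived hen 3. Against non-manipulated hens it was 0.38 (95% interval -0.16 to 0.92, edgeR P of 0.147).

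The glutamate carrier SLC25A22 had 31.8, 25.4 and 36.1 CPM in albumen-deprived, 25.6, 18.2 and 26.9 among sham-manipulated and 24.8, 24.7 and 26.6 among non-manipulated hens. Hens 1 and 3 of the albumen-deprived group were the highest of all, and hen 2 lay among the hens of the others. Set against the sham-manipulated group, its log2-fold change was 0.40 (SE 0.17, 95% interval 0.01 to 0.79, edgeR P of 0.0451, adjusted P of 0.694). Without sham-manipulated hen 2 it was 0.24 (P of 0.155), without albumen-deprived hen 3 0.28 (P of 0.172) and without albumen-deprived hen 1 0.39 (P of 0.0941). The P-value was also 0.0578 to 0.0599 without any 1 non-manipulated hen, with the log2-fold change still at 0.40, and 0.0530 in the likelihood ratio test.

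Mitoferrin-1 (SLC25A37) rested on 31 to 123 counts per library. Its CPM was 3.24, 2.23 and 2.44 in albumen-deprived, 3.07, 6.11 and 4.22 among sham-manipulated and 2.95, 3.54 and 1.74 among non-manipulated hens. Sham-manipulated hens 2 and 3 were the highest of all, and hen 1 of that group lay among the hens of the others. The log2-fold change of albumen-deprived against sham-manipulated hens was -0.77 (SE 0.34, 95% interval -1.52 to -0.01, edgeR P of 0.0481, adjusted P of 0.695). It was -0.47 (P of 0.209) without sham-manipulated hen 2, and P was 0.0611 without non-manipulated hen 1, 0.0703 without sham-manipulated hen 3, 0.132 without albumen-deprived hen 2 and 0.111 without albumen-deprived hen 3. It was 0.0830 after GC and between-library quantile normalization and 0.0649 with a replicate block, where the number of members called was 2.

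Markers of blood cells were read beside SLC25A37. Of 10 heterophil symbols, 7 were found, in 8 loci of which 7 were tested. Lower levels in the albumen-deprived than the sham-manipulated group, at an unadjusted edgeR P under 0.05, were found for 5 of these (71.4%). The share over all loci was 3.02%. The 7 loci mark the same cell type and may rise and fall together, so the 5 calls are not separate results. CATHL2, 1 of the 5, passed the filter through non-manipulated hen 1 and sham-manipulated hens 1 and 2 alone. The study had already listed GAL2, GAL7 and LECT2, which are among the 7, as differing between these 2 groups in the same data. Its qPCR with more hens per group found no significant difference for LECT2, and its qPCR did not cover GAL2 and GAL7. The summed CPM of the 8 loci was 17.4 to 29.4 in albumen-deprived, 20.3 to 76.1 among sham-manipulated and 16.7 to 42.3 among non-manipulated hens. It was highest in sham-manipulated hens 1 (76.1) and 2 (62.3), whereas hen 3 of that group (20.3) lay in the range of the albumen-deprived hens. Of 11 erythrocyte symbols, 4 were found and 1 was tested. Their summed CPM was 29.9 to 52.4 in albumen-deprived, 36.5 to 67.7 among sham-manipulated and 23.9 to 41.9 among non-manipulated hens. HBB, in a locus that also held the name GGA.4981, made up nearly all of it. HBAA was at 0 and HBAD at a mean of 0.387 CPM. Resting almost wholly on 1 locus, the sum is not a measure of red cell content. The part of blood cells in the difference of SLC25A37 was not tested.

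Other members crossed the threshold in this comparison when 1 library was left out. Without sham-manipulated hen 2, SLC25A24 was lower (log2-fold change -0.64, edgeR P of 0.0218) and SLC25A25 higher (0.95, P of 0.0271). Without sham-manipulated hen 3, SLC25A29 was higher (0.55, P of 0.0366), and without albumen-deprived hen 3, SLC25A28 was lower (-0.46, P of 0.0167) and was the only member called. The 2 most abundant carriers had log2-fold changes of -0.02 for SLC25A6 (95% interval -0.40 to 0.36) and 0.04 for SLC25A1 (-0.30 to 0.38).

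**Figure D4:**
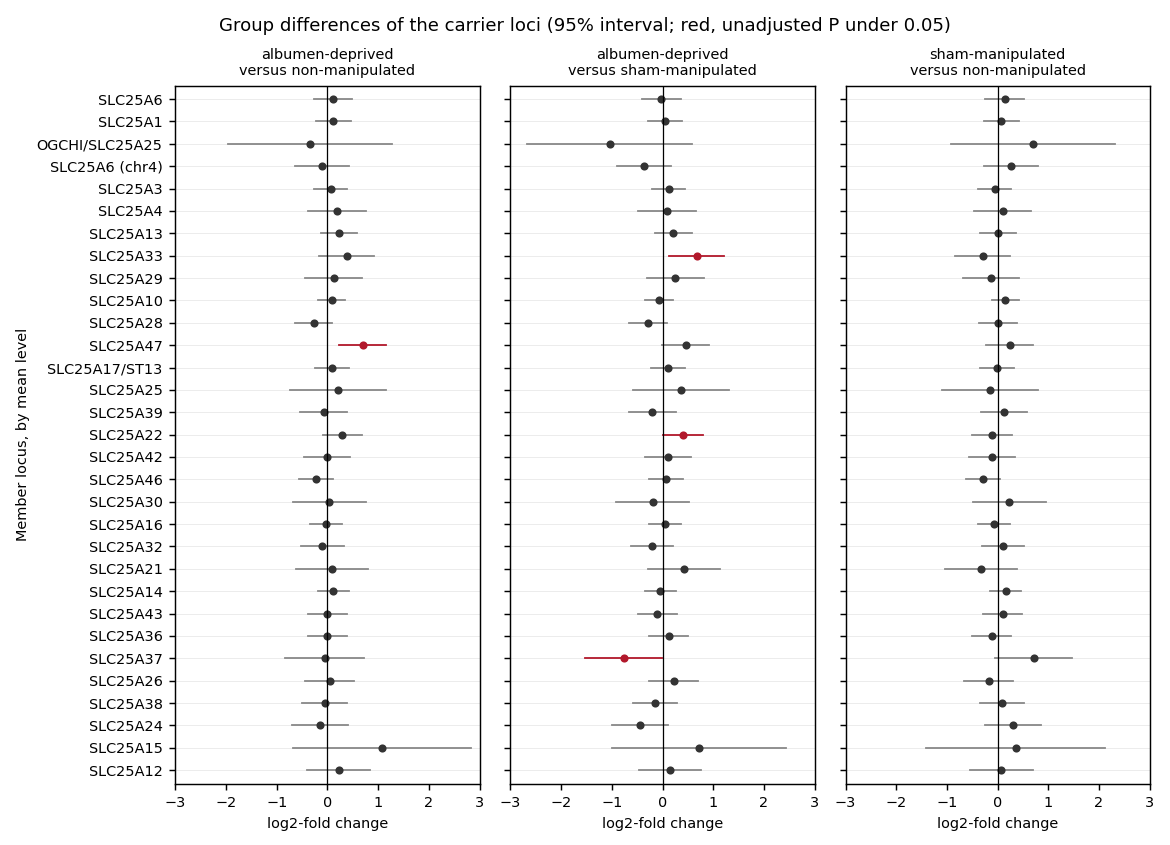
Log2-fold change (x axis) of 31 of the 32 member loci tested in the 3 comparisons of groups, in order of mean level, with the 95% interval of the edgeR fit and red for an unadjusted P-value under 0.05. There are 1, 3 and 0 red loci from left to right, most points lie close to 0, and OGCHI/SLC25A25 and SLC25A15 have the widest intervals.

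Between sham-manipulated and non-manipulated hens, no member had an unadjusted P-value under 0.05 in edgeR or in DESeq2's Wald test, against 5.28% of all loci in edgeR. No locus passed after adjustment. No member but 0.0649% of loci passed the study's cut-off, again set on the edgeR P-values used here. The smallest P-value was that of SLC25A37 (log2-fold change 0.71, SE 0.34, 95% interval -0.05 to 1.47, edgeR P of 0.0630, adjusted P of 0.906). The median log2-fold change was 0.07 over the members, 20 above and 12 below 0, and 0.01 over all loci. It was -0.04 without sham-manipulated hen 3, 0.01 without non-manipulated hen 1 or 3, 0.03 to 0.07 without any 1 of the other hens, and 0.05 with no filter on low counts. Groups did not overlap for 1 member (3.12%), against 9.71% of all loci. This was SLC25A46 on the Z chromosome, at 16.1, 19.6 and 17.2 CPM among sham-manipulated and 21.1, 23.3 and 20.1 CPM among non-manipulated hens, chosen for naming after its values were seen. Its log2-fold change was -0.29 (95% interval -0.62 to 0.05, edgeR P of 0.0861). Albumen-deprived hens, at 22.3, 16.5 and 16.5 CPM, had 1 hen in the range of the non-manipulated and 2 in that of the sham-manipulated group.

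Leaving out 1 library changed the count of 0 in 4 cases. Without non-manipulated hen 2, the merged locus OGCHI/SLC25A25 (log2-fold change 1.98, edgeR P of 0.00959) and SLC25A37 (0.94, P of 0.0370) were called. SLC25A37 was also called without sham-manipulated hen 1 (0.91, P of 0.0256), SLC25A47 without non-manipulated hen 1 (0.48, P of 0.0250) and SLC25A46 without albumen-deprived hen 1 (-0.29, P of 0.0423). The smallest edgeR adjusted P of a member over these 4 fits was 0.768.

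Differences between hens of the same group were next described without a test. The within-group SD of log2 CPM had a median of 0.23 over the members and 0.26 over all loci tested, and 15 members were above and 17 below the latter value. The smallest SD was 0.11 for SLC25A14 and the largest 1.09 for SLC25A15. From the lowest to the highest of the 9 hens, 12 members ranged by less than 1.5 times and 9 by more than 2 times, with a median of 1.64 against 1.77 over all loci.

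SLC25A15 had the widest range, 10.4 times, on 15 to 135 counts per library. Its CPM was 1.77, 3.07 and 0.842 among non-manipulated, 1.28, 3.97 and 1.91 among sham-manipulated and 8.73, 2.11 and 1.05 among albumen-deprived hens. Albumen-deprived hen 1 was more than 2 times as high as any other hen, while the other hens of its group lay among those of the other groups. Of the 7 tested loci of ornithine and citrulline metabolism, 4 lay above the median level of all loci and 3 below it. Argininosuccinate synthase (ASS1) had 18.8, ornithine aminotransferase (OAT) 14.8, ornithine decarboxylase (ODC1) 9.14 and ornithine transcarbamylase (OTC) 7.43 CPM per kilobase. CPS1, which begins the urea cycle of mammals, was at 1.065, the highest of the 3 below the median.

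The merged locus OGCHI/SLC25A25 had 498, 2786 and 552 CPM among non-manipulated, 2099, 3335 and 780 among sham-manipulated and 1148, 571 and 1299 among albumen-deprived hens, a range of 6.70 times. Non-manipulated hen 2 and sham-manipulated hens 1 and 2 were the 3 highest. The overlapping locus named SLC25A25 had 71.7, 43.9 and 66.6 CPM among non-manipulated, 24.9, 90.9 and 48.05 among sham-manipulated and 89.7, 73.2 and 48.1 among albumen-deprived hens, a range of 3.66 times. Sham-manipulated hen 2 was the highest at both loci, whereas sham-manipulated hen 1 was the lowest at SLC25A25 and the third highest at the merged locus.

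SLC25A30 had 7.46, 15.4 and 13.02 CPM among non-manipulated, 18.8, 8.74 and 14.7 among sham-manipulated and 14.2, 9.94 and 12.8 among albumen-deprived hens. Its lowest and highest hen, 2.52 times apart, were thus in the groups that had kept their albumen. SLC25A37, described above, completed the 5 members with the largest spread, with an SD of 0.43.

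The median deviation of a hen from the member medians ran from -0.07 in non-manipulated hen 3 to 0.14 in albumen-deprived hen 1 on the log2 scale. Over all loci it was 0 for every hen. Libraries were scaled and each locus was centred on its own median, so that value was largely set in advance. It gives no measure of how far a median over 32 loci scatters. Sham-manipulated hen 2 was the highest in 7 of the 32 members (21.9%) and albumen-deprived hen 1 in 6 (18.8%), against 13.1% and 11.9% of all loci. Sham-manipulated hen 1 and non-manipulated hen 3 were each the lowest in 7 members (21.9%), against 14.2% and 8.61% of all loci.

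**Figure D5:**
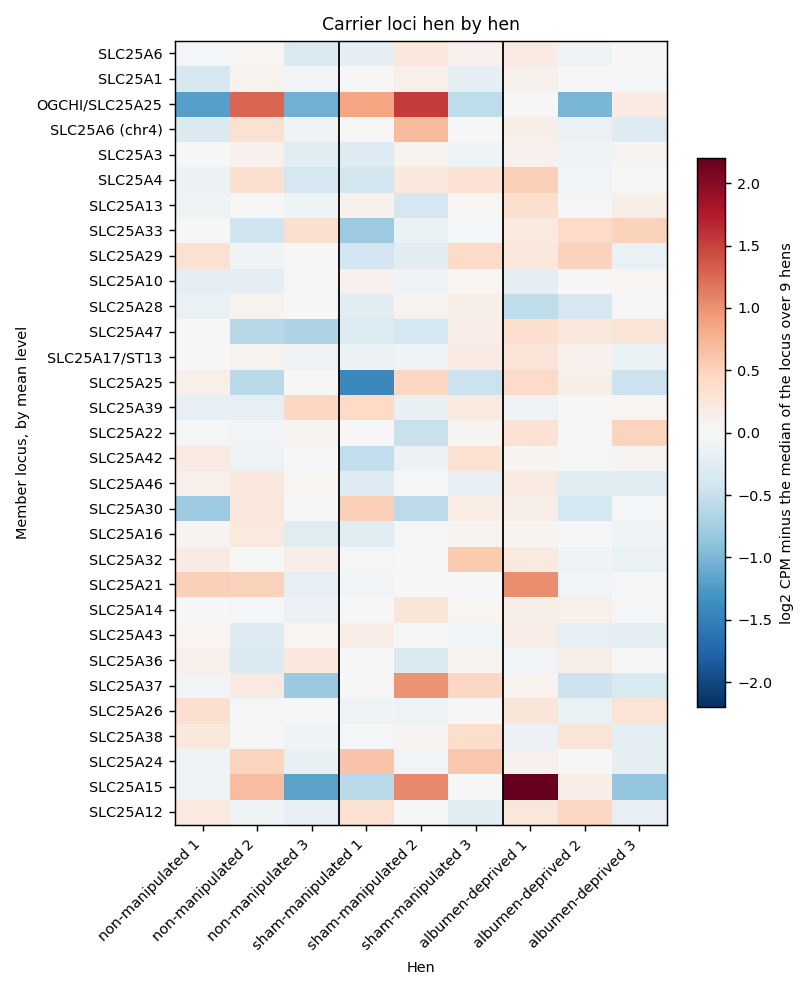
Deviation of each hen (columns, black lines between groups) from the median over 9 hens for 31 of the 32 member loci tested (rows, by mean level), as log2 CPM on the colour scale. Strong colours are held to a few rows, above all OGCHI/SLC25A25 and SLC25A15, and no column has a single colour.

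Genes that work beside the carriers were read from lists chosen with earlier results of these data known. Of the relatives under other symbols, MTCH2, a carrier-like protein of the outer membrane, had 55.8 CPM per kilobase and rank 708, and MTCH1 1.49. The uncoupling protein locus, UCP in the files and UCP3 in the RefSeq table, did not pass the filter (mean 0.113 CPM). Of the carrier import machinery, 6 of 9 symbols were found and 5 were tested. None had an unadjusted edgeR P under 0.05 in any of the 3 comparisons, against 3.23% to 7.13% of all loci. The summed CPM of the 6 was 73.7 to 81.3 in the 9 hens.

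Of 15 channels and other transporters of the mitochondrion, the pyruvate carrier subunit MPC2 had the highest length-scaled level (194 CPM per kilobase), followed by MPC1 (124, both under their older BRP44 symbols in the files) and the outer membrane channel VDAC2 (87.4). This order rested on the deposited locus lengths. Without scaling by length, MPC1 was the highest, with a mean of 1201 CPM against 191 for VDAC2 and 174 for MPC2. Unadjusted edgeR P-values under 0.05 were found for 1 of the 15 (6.67%) between albumen-deprived and sham-manipulated hens, against 7.13% of all loci, for 1 (6.67%) between sham-manipulated and non-manipulated hens, against 5.28%, and for none in the remaining comparison. These shares were near those of all loci. SFXN3, a sideroflexin, was lower in albumen-deprived than sham-manipulated hens (-0.73, SE 0.31, edgeR P of 0.0409, adjusted P of 0.694), and SFXN2 lower in the sham-manipulated than the non-manipulated group (-0.40, SE 0.12, edgeR P of 0.00728, adjusted P of 0.906).

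Enzymes that share metabolites with the carriers had no unadjusted edgeR P under 0.05 in any comparison, against 3.23% to 7.13% of all loci. This held for the 6 of citrate and NADPH metabolism, 2 of the malate-aspartate shuttle, 3 of the carnitine shuttle, 7 of ornithine and citrulline, 2 of glycine and heme and 2 that make phosphoenolpyruvate. With so few loci, a count of 0 lies near the shares of all loci. SEs of the log2-fold changes were large for PCK1 (1.20 to 1.21) and OTC (0.80 to 0.82), so the lack of a call says little there. Sham-manipulated hen 1 had 0.753 CPM for both genes. The other hens had 30.2 to 269 CPM for PCK1 and 8.95 to 30.9 CPM for OTC. ATP citrate lyase (ACLY, ACL in the files), which uses the citrate that SLC25A1 exports, had 87.0 CPM per kilobase, and the malate dehydrogenases MDH1 and MDH2 191 and 65.3. Mitochondrial and cytosolic aspartate aminotransferases, partners of SLC25A13 in the malate-aspartate shuttle, had 135 (GOT2) and 58.7 (GOT1) CPM per kilobase, both above SLC25A13 itself.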

How the data were processed

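Liver RNA-Seq of 9 hens was used, grouped by the sample labels. The authors mapped single-end reads to Galgal4 (TopHat2 2.0.8b), merged Cufflinks 2.1.1 models with the annotation and deposited counts per locus from HTSeq 0.5.4p3, unstranded, with GC content in percent. The authors also deposited FPKM values of 13599 loci, quantile-normalized by GC bin and then across samples, used here for 1 alternative rank. Their columns of fold changes, P-values, false discovery rates and DE calls were not used. The number of sample columns left out was 0.

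Counts were scaled by TMM (factors 0.914 to 1.12) and tested over all loci with edgeR 4.0.16 in R 4.3.3 (quasi-likelihood F-test, 1 coefficient per group, 9 libraries, common dispersion 0.0630), with Benjamini-Hochberg adjustment over 12324 loci. The standard error was the log2-fold change divided by the square root of F, and 95% intervals used the t distribution with 9.32 degrees of freedom. Log2 CPM had a prior count of 2. On simulated counts for the comparison of albumen-deprived with non-manipulated hens over 12324 loci, 99.0% of 200 loci changed by a log2-fold change of 2 had a P-value under 0.05, as had 5.03% of unchanged loci. Smaller changes, such as those of the members, were not simulated, so this does not show how many of them would be found.

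The members and lists were chosen with earlier results of these data known. Values per hen were given for the 10 members of highest length-scaled level, those with an unadjusted P under 0.05 in any comparison and the 5 of largest within-group SD, and count ranges for members below the filter. Alternatives were DESeq2 1.42.0 size factors, GC and quantile normalization, no filter, the likelihood ratio test, DESeq2's Wald test, a replicate block, a library code term and each library left out. The values of 1 member locus and 1 gene of the lists are not reported here; the member stays in the counts and medians over members.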

Additional observations from a re-analysis of the deposited data

How the results depend on the processing

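Under all 7 other settings, the count of members with an unadjusted P under 0.05 stayed at 1 for albumen-deprived against non-manipulated hens. It stayed at 0 for sham-manipulated against non-manipulated hens. For albumen-deprived against sham-manipulated hens it was 2 to 4, against 3 in the main fit, as SLC25A22 or SLC25A37 dropped out or SLC25A47 joined. With 1 library left out it ran from 1 to 2 for albumen-deprived against non-manipulated hens (2 without non-manipulated hen 3 or any 1 albumen-deprived hen), from 1 (without albumen-deprived hen 3) to 4 for albumen-deprived against sham-manipulated hens, and from 0 to 2 for sham-manipulated against non-manipulated hens. SLC25A47 kept its call against non-manipulated hens in all 9 of these fits. Against sham-manipulated hens, SLC25A33 kept its call in 7, SLC25A37 in 4 and SLC25A22 in 3. No log2-fold change of these members changed sign. They had been picked by their P-values in the same hens, and the fits share most libraries. Kept calls and signs are thus no independent support. The likelihood ratio test put SLC25A22 at a P of 0.0530. The number of members in the top 10% by level was 7 with the deposited FPKM and with DESeq2 size factors, 9 with no filter, and 6 to 7 with 1 library left out. With no filter the set of loci is larger, so its top 10% reaches further down the ranks. The median within-group SD was 0.23 with DESeq2 size factors and 0.21 to 0.25 with 1 library left out. These alternatives for the spread, DESeq2 size factors for the rank and the sum without OGCHI/SLC25A25 were added after the data were seen. Correlations of the deviations of hens in different groups were -0.16 to 0.24 for the same number and -0.26 to 0.27 for different numbers. They gave no sign that the numbers pair the hens, but 3 hens in a group are too few to decide this. With a replicate block, 1, 2 and 0 members were called against 1, 3 and 0 without it. SLC25A37 and SLC25A15 had at most 123 and 135 counts in a library. Intervals reached past changes of 2 times for SLC25A15 in every comparison and for SLC25A37 in those with the sham-manipulated group. P-values set differences between groups against the spread between hens of a group, for these 9 hens only.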
